A study of Mus musculus with 12 samples.

Results

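Transcripts of 10 genes best known from airway and lung epithelium were followed through brain RNA of 12 mice. They were Scgb1a1, Scgb3a1, Scgb3a2, Sftpa1, Sftpb, Sftpc, Sftpd, Cyp2f2, Ager and Napsa, taken as the rows of the count table that carry these names, 10 of 39756 genes. The set was chosen by the counts of these genes in the Vehicle and LJP mice, where several were low or at 0 in LJP, in an earlier look at the same table, so every value of LJP against another group is given for these genes as a description, without a test. The Vehicle counts entered that choice as well, so the test of Vehicle against Sham is not independent of it, and its results for these genes support nothing beyond the values themselves.

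The mice were male C57BL/6 animals of 9 to 10 weeks by the study's methods (C57BL/6J in the labels), 4 in each group. Sham mice had the operation without occlusion and received saline. Vehicle mice received saline and had tMCAO, a transient occlusion of the middle cerebral artery by a filament that is drawn back after 45 min. LJP mice had the same occlusion and were given Laminaria japonica polysaccharide, a sulfated polysaccharide of brown seaweed, into the stomach once a day for 14 days before surgery and on after it. RNA came from the ischemic hemisphere, also by the labels of the Sham mice, and the sources used here do not name the time point of the sequenced mice. The study took the middle of its 3 doses for the experiments that followed its dose comparison and does not restate the dose for sequencing. All labels give the same batch. A whole hemisphere holds many cell types, so a change in the number of cells that make a transcript and a change in the amount per cell cannot be told apart. Total counts per mouse lay between 17960353 and 22216315. Vehicle mice 1 and 2 stood apart over all genes: the chi-square per degree of freedom between mice of a group was 41.3 to 111 in the 5 pairs that held either of them and 2.48 to 15.2 in the 13 other pairs. Each of 8 markers of neurons, oligodendrocytes, astrocytes and microglia (Snap25, Syt1, Slc17a7, Gad1, Mbp, Aqp4, Slc1a2 and Cx3cr1) reached at least 38.7 CPM (counts scaled to the normalized library size) in every mouse, as brain tissue should.

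Secretoglobins are small secreted proteins that club cells and other secretory cells release into the fluid lining the airways. Surfactant proteins are made by alveolar type II cells: SP-B and SP-C are hydrophobic peptides that let the lipid film spread and keep the alveoli open, and SP-A and SP-D are collectins that bind microbes. The transcription factor NKX2-1 drives many of these genes in lung epithelium, and it is also active in parts of the forebrain. None of the 10 genes is a standard marker of a brain cell type.

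Positions in the count table are those of GRCm38, and none of the 10 genes overlapped another annotated gene. Sftpa1 (chr14:41131788-41136373, plus strand) and Sftpd (chr14:41172212-41185198, minus strand) are close neighbours, and Sftpc (chr14:70520941-70524081, minus strand) sits farther along the same chromosome. Scgb1a1 is at chr19:9083642-9087956 on the minus strand and Scgb3a1 at chr11:49663595-49665118 on the plus strand. Sftpb is at chr6:72304610-72314373, Cyp2f2 at chr7:27119955-27133660, Napsa at chr7:44572445-44586846 and Ager at chr17:34597460-34600937, all on the plus strand.

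A promoter window from RefSeq (GRCm38.p6) was at hand for 5 of the 10 genes. The 250 bases before the start of Sftpa1, Sftpb and Scgb3a1 are printed because the first pair of genes had at most 2 counts in any LJP mouse while Scgb3a1 was counted in all of them. Capitals mark the core letters of the NKX2-1 motif, CTCAAG or its reverse complement CTTGAG.
Sftpa1, chr14:41131538-41131787, plus strand: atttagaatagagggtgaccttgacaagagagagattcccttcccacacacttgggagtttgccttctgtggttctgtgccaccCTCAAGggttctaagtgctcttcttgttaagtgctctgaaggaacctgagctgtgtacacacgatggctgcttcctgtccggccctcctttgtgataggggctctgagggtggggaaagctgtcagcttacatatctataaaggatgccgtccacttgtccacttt
Sftpb, chr6:72304360-72304609, plus strand: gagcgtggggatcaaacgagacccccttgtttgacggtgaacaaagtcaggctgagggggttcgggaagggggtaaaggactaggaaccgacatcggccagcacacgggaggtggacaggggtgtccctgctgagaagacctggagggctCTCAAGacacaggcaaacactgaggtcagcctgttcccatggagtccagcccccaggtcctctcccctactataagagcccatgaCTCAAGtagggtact
Scgb3a1, chr11:49663345-49663594, plus strand: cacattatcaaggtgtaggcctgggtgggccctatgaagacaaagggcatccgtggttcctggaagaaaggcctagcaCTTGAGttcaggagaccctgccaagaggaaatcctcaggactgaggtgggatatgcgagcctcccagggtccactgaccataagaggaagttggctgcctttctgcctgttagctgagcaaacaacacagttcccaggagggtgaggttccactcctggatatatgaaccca
The core began 166 bases before the start of Sftpa1. It occurred in Sftpb at 100 and at 15 bases before the start, and in Scgb3a1, as the reverse complement, at 172. The windows of Cyp2f2 and Ager held no match, and that of Ager lies inside the span the count table gives the gene. Of the 32536 windows of this length that were searched, which do not cover every gene of the count table, 13.3% held the core on either strand. The core of the FOXA motif, TGTTTNC or GNAAACA, was found in Sftpb at 88 and in Scgb3a1 at 55 bases before the start and in 17.8% of all windows. The core of the C/EBP motif, TTGCNNAA or TTNNGCAA, was in none of the 5 windows and in 9.57% of all. These matches are letters in a window and nothing was measured about binding. The NKX2-1 core stood both before genes that were low in the LJP mice and before Scgb3a1, which was not.

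**Figure D1:**
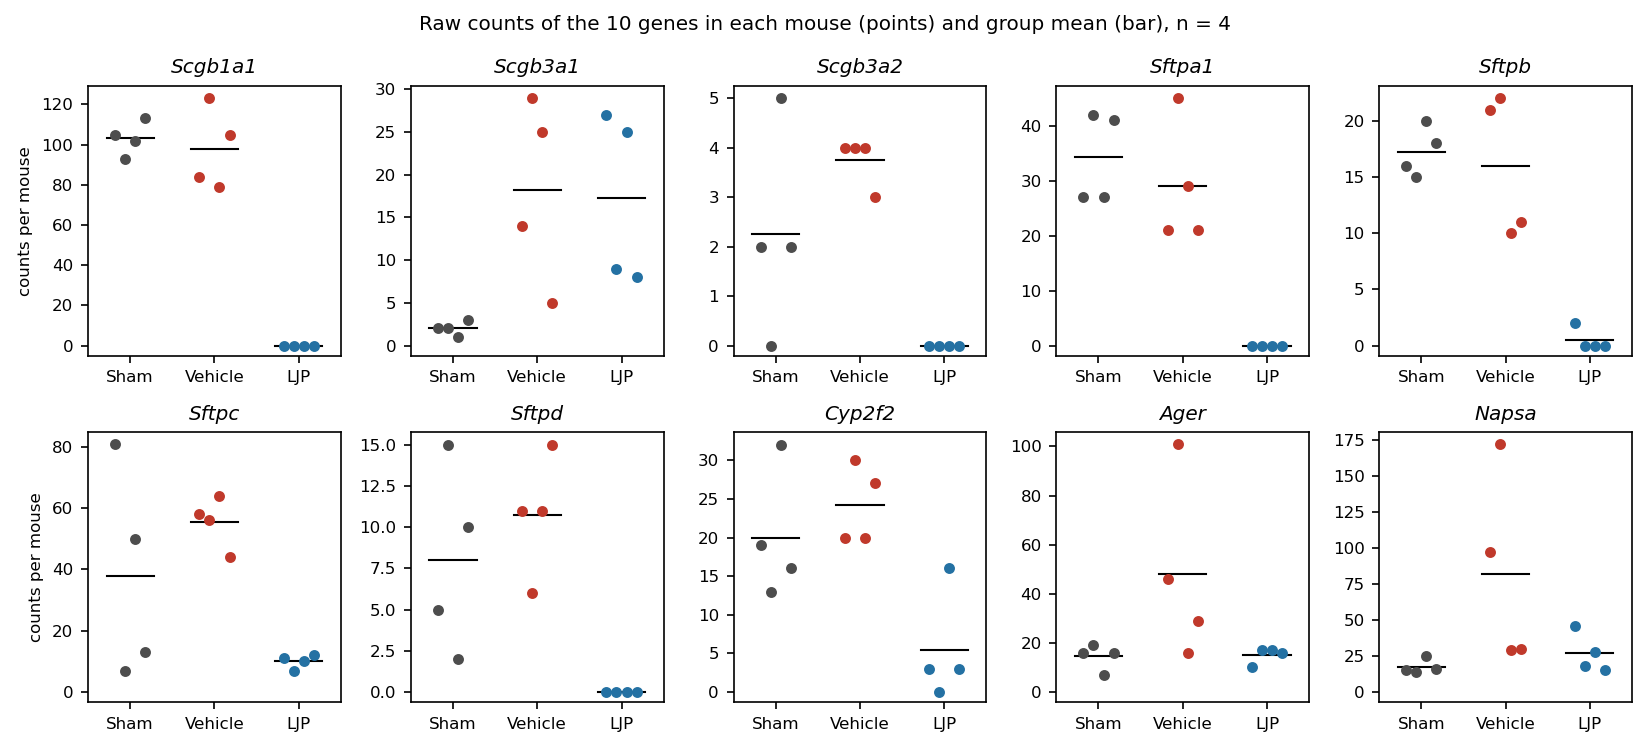
Raw counts of the 10 genes in each mouse (points, vertical axis) and the group mean (bar) in 4 Sham, 4 Vehicle and 4 LJP mice (horizontal axis), each panel with its own scale. Scgb1a1, Scgb3a2, Sftpa1 and Sftpd stand at 0 in all LJP mice, while Scgb3a1, Ager and Napsa do not.

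Among the airway genes, Scgb1a1, which encodes the club cell secretory protein, was counted evenly in both saline groups and in no LJP mouse. Sham mice 1 to 4 had 105, 93, 102 and 113 counts, and Vehicle mice 1 to 4 had 84, 123, 79 and 105 (counts are given in this order throughout). All 4 LJP mice had 0. No LJP mouse overlapped the other 8. With a count of 0 read as at most 3 counts per library, or 0.155 CPM on average in the LJP mice, its mean of 5.64 ± 0.43 CPM (SD, n = 4) in the Sham mice was at least 36.4-fold higher and its 4.75 ± 0.86 CPM (SD, n = 4) in the Vehicle mice at least 30.7-fold higher. Such limits cover only the counting error of the 0 counts and take the mean of the other group as it is.

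Scgb3a1, another secretoglobin of airway secretory cells, did not share that pattern. It had 2, 2, 1 and 3 counts (Sham), 14, 29, 25 and 5 (Vehicle) and 27, 9, 25 and 8 (LJP). The lowest mouse with occlusion lay above the highest Sham mouse, and the Vehicle and LJP mice overlapped, with means of 0.874 ± 0.511 and 0.873 ± 0.488 CPM (SD, n = 4 each). Scgb3a2, the remaining secretoglobin, was close to the limit of detection throughout. It had 2, 0, 5 and 2 counts (Sham), 4, 4, 4 and 3 (Vehicle) and 0 in each LJP mouse. Sham mouse 2 was at 0 like the LJP mice, and the Sham mean of 0.123 CPM is below the 0.155 CPM that 0 counts allow, so a difference from Sham was not detectable at this depth. The Vehicle mean of 0.183 ± 0.023 CPM (SD, n = 4) was 1.18 times that limit. The counting error of the few Vehicle counts is not in this ratio, so it gives no lower bound.

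Cyp2f2, a cytochrome P450 of club cells that activates naphthalene, was lower in the LJP mice but present in 3 of them. It had 19, 13, 32 and 16 counts (Sham), 20, 30, 20 and 27 (Vehicle) and 3, 0, 16 and 3 (LJP). LJP mouse 3 reached the level of Sham mice 2 and 4, while all LJP mice lay below all Vehicle mice. The Vehicle mean was 4.03 times and the Sham mean 3.74 times the LJP mean of 0.293 ± 0.391 CPM (SD, n = 4). LJP mouse 3 gave 16 of the 22 LJP counts, and without it the LJP mean was 0.101 ± 0.089 CPM (SD, n = 3), under the 0.152 CPM that 3 counts per library come to in these 3 mice, to which the ratios were 7.76 (Vehicle) and 7.202 (Sham).

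Of the surfactant genes, Sftpa1, which encodes SP-A, followed Scgb1a1 most closely. It had 27, 42, 27 and 41 counts (Sham), 21, 45, 29 and 21 (Vehicle) and 0 in each LJP mouse. Its Sham mean of 1.86 ± 0.40 CPM (SD, n = 4) was at least 12.0-fold and its Vehicle mean of 1.39 ± 0.44 CPM (SD, n = 4) at least 8.998-fold above the limit for the LJP mice. Sftpd, for SP-D, had 5, 15, 2 and 10 counts (Sham), 11, 6, 11 and 15 (Vehicle) and 0 in each LJP mouse. Those values put the Vehicle mean at least 3.48-fold and the Sham mean at least 2.80-fold higher than LJP.

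Sftpb, for SP-B, had 16, 15, 20 and 18 counts (Sham) and 21, 22, 10 and 11 (Vehicle). LJP mouse 1 had 2 counts and the other LJP mice 0. Over summed counts, scaled to library size, Vehicle was 30.2 times LJP (95% counting interval 8.04 to 255) and Sham 36.7 times LJP (9.78 to 309). This interval treats the 4 LJP libraries as 1 pool. Against the wider limit of 3 counts per library, used above for genes at 0, the ratios were 4.89 and 6.08, so its ratios of summed counts are not comparable with the bounds for Scgb1a1 and Sftpa1. Sftpc, for SP-C, was the surfactant gene that stayed present in all LJP mice. It had 81, 7, 50 and 13 counts (Sham), 58, 56, 64 and 44 (Vehicle) and 11, 7, 10 and 12 (LJP). Sham mouse 2 fell in the range of the LJP mice and Sham mouse 4 lay 1 count above it, whereas the Vehicle mice all lay well above it. The Vehicle mean was 5.24 times the LJP mean of 0.518 ± 0.128 CPM (SD, n = 4).

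Napsa, napsin A, is an aspartic protease that processes SP-B in type II cells, and Ager encodes RAGE, a receptor abundant on alveolar type I cells. Both are also expressed outside the lung. Napsa had 15, 14, 25 and 16 counts (Sham), 97, 172, 29 and 30 (Vehicle) and 46, 18, 28 and 15 (LJP). Ager had 16, 19, 7 and 16 (Sham), 46, 101, 16 and 29 (Vehicle) and 10, 17, 17 and 16 (LJP). Both were highest in Vehicle mice 1 and 2, and for both the LJP and Sham mice overlapped. The Vehicle means were 2.79 times (Napsa) and 2.82 times (Ager) the LJP means, with overlap between Vehicle and LJP mice in both. Without Vehicle mice 1 and 2, a choice made after the counts were seen, the ratios were 1.18 (Napsa) and 1.54 (Ager).

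Across the set, all LJP mice lay below all Vehicle mice in 7 genes, against 3.85% of the 30210 genes with any count, and below all Sham mice in 4 genes (Scgb1a1, Sftpa1, Sftpb and Sftpd), against 7.36%. They lay below all 8 other mice in these 4 genes, against 0.182% of all genes. The choice of the genes used the first of these contrasts, so nothing is read from the counts. At the edges of the pattern, Sftpb with 2 counts in 1 LJP mouse was the gene nearest to those at 0, and Cyp2f2 with a total of 22 counts was the nearest of those that stayed present.

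The summed level of the 10 genes was 14.1 ± 2.07 CPM in the Sham mice, 18.4 ± 4.67 in the Vehicle mice and 3.83 ± 1.23 in the LJP mice (SD, n = 4 each). Vehicle mouse 2 stood above the other Vehicle mice, with 588 summed counts against 287 to 376. The mean CPM of Vehicle mice 3 and 4 alone was 0.425 times that of all 4 for Napsa and 0.548 times for Ager, and 0.747 (Sftpb) to 1.298 (Sftpd) times for the other 8 genes. For the 7 genes other than Scgb3a1, Ager and Napsa the sums were 185 to 255 counts per Sham mouse, 217 to 286 per Vehicle mouse and 7 to 26 per LJP mouse. Scgb3a1, Ager and Napsa made up 72.2% to 86.3% of the counts of the set in the LJP mice, 22.1% to 51.4% in the Vehicle mice and 11.5% to 15.9% in the Sham mice.

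The spread across the 8 Sham and Vehicle mice also differed between the genes. Scgb1a1 had the lowest coefficient of variation, 15.2% in CPM, with a highest count 1.56 times the lowest. The SD of its counts was 14.6, against 10.03 from counting alone, and that of Sftpb was 4.47 against 4.08, so the larger relative spread of Sftpb is near its counting error. Sftpb varied by 22.5%, Sftpa1 by 28.5% and Cyp2f2 by 30.4%. Sftpc varied by 57.4%, with a highest count 11.6 times the lowest, and Ager, Napsa and Scgb3a1 by 83.7%, 100% and 108%. Within a mouse the ratio of Scgb1a1 to Sftpa1 counts lay between 2.21 and 5, and that of Sftpc to Sftpb between 0.467 (Sham mouse 2) and 6.40 (Vehicle mouse 3).

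Per length (CPM per kb of the gene length in the table), Scgb1a1 was the highest of the set in the Sham mice, at 12.1 ± 0.91 (SD, n = 4), and no Sham mouse overlapped the next gene, Sftpc at 2.63 ± 2.49. Sftpc overlapped Sftpa1 (0.671 ± 0.146), and Sftpa1, Napsa and Cyp2f2 each overlapped the next, down to Sftpb (0.602 ± 0.074). Sftpb stood clear of Ager (0.379 ± 0.137), and Ager, Sftpd and Scgb3a2 each overlapped the next, down to Scgb3a1. In the Vehicle mice Scgb1a1 (10.2 ± 1.85) again stood clear of Sftpc (3.37 ± 0.62), and all other neighbours overlapped, with Napsa (2.53 ± 1.87), Scgb3a1 (1.43 ± 0.83) and Ager (1.06 ± 0.72) next. In the LJP mice the order began with Scgb3a1 (1.42 ± 0.80), Napsa (0.907 ± 0.395) and Sftpc (0.644 ± 0.160), of which each overlapped the next, and Sftpc stood clear of Ager (0.376 ± 0.106). The gene that led the other groups was thus at 0, and the gene that came last in the Sham mice led.

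**Figure D2:**
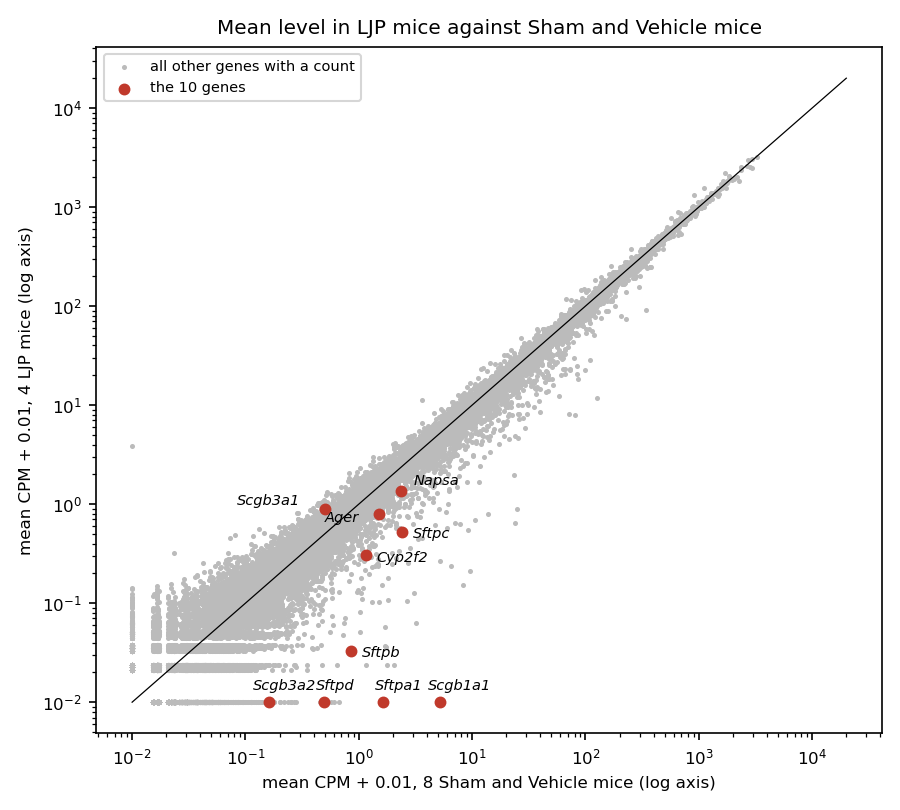
Mean level of every gene with a count in the 4 LJP mice (vertical, CPM + 0.01) against the 8 Sham and Vehicle mice (horizontal, CPM + 0.01), both on log axes, with the 10 genes in red and a line of equal levels. Scgb1a1 and Sftpa1 lie farthest to the right among the genes at 0 in the LJP mice, and Scgb3a1 lies above the line.

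The contrast of Vehicle with Sham asks whether the transcripts moved with occlusion alone. A choice by counts in Vehicle above those in LJP favours genes that are high in these Vehicle mice, which the p-values do not take into account. With edgeR's quasi-likelihood test over all 17558 genes that passed a filter on low counts, 3 of the 10 genes passed an adjusted p of 0.05, all higher in the Vehicle mice. Of all genes tested, 39.9% passed, 22.7% in the higher direction, so the share in the set was not far from that of genes in general. The filter kept 8 of the 10. Scgb3a2 and Sftpd did not and were read from a fit without it, in which 21.2% of 30210 genes passed. The median log2 fold change of the 10 genes was 0.33, against 0.00 over all genes tested. P-values measure the spread between the mice of a group.

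Scgb3a1 was higher in the Vehicle mice by 2.94 on the log2 scale (standard error 0.65, edgeR adjusted p = 0.00431), from 0.109 ± 0.041 to 0.874 ± 0.511 CPM (SD, n = 4 each). Napsa was higher by 1.97 (standard error 0.51, edgeR adjusted p = 0.00923), from 0.957 ± 0.279 to 3.74 ± 2.77 CPM. Ager was higher by 1.49 (standard error 0.47, edgeR adjusted p = 0.0235), from 0.793 ± 0.285 to 2.21 ± 1.504 CPM. All Vehicle mice lay above all Sham mice in Scgb3a1 and Napsa, as in 12.9% of all genes with a count, and Ager overlapped, in Vehicle mouse 3. Without Vehicle mice 1 and 2 Scgb3a1 kept its call at 2.81 (edgeR adjusted p = 0.0117), and Napsa at 0.72 (edgeR adjusted p = 0.192) and Ager at 0.60 (edgeR adjusted p = 0.333) lost theirs. Ager also lost its call without Vehicle mouse 2 alone (edgeR adjusted p = 0.0910), without Sham mouse 3 (0.0679) and without Sham mouse 4 (0.0511).

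The other 7 genes did not pass. Scgb1a1 had a log2 fold change of -0.25 with a 95% interval of -0.61 to 0.12 (edgeR adjusted p = 0.313), the narrowest interval of the set. Sftpa1 was at -0.41 (-1.01 to 0.18, edgeR adjusted p = 0.299) and Sftpb at -0.30 (-1.04 to 0.44, 0.546). Sftpc at 0.36 (-0.72 to 1.45, 0.624), Cyp2f2 at 0.11 (-1.02 to 1.24, 0.894), Sftpd at 0.30 (-0.87 to 1.48, 0.775) and Scgb3a2 at 0.55 (-1.12 to 2.22, 0.699) had intervals that allow more than a doubling of the level. The direction of Cyp2f2 turned when Sham mouse 2, Sham mouse 4 or Vehicle mouse 4 was left out, and that of Sftpd without Sham mouse 3. With 1 mouse left out, Sftpc ran from 0.011 (without Sham mouse 2) to 1.10 (without Sham mouse 1, edgeR adjusted p = 0.127), and Scgb3a2 from 0.15 (without Sham mouse 2) to 1.26 (without Sham mouse 3).

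**Figure D3:**
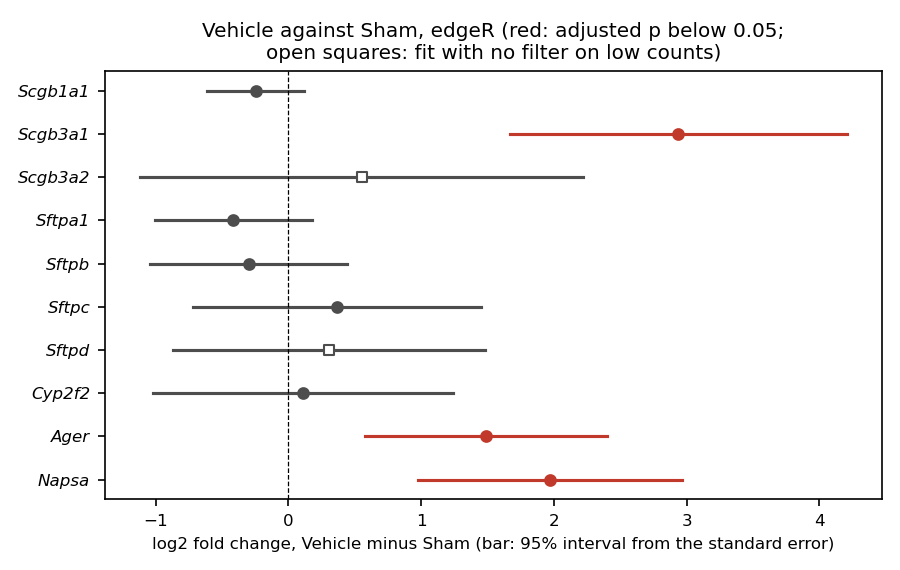
Log2 fold change of each of the 10 genes, Vehicle minus Sham (horizontal), with its 95% interval from the edgeR standard error, n = 4 mice a group. Scgb3a1, Napsa and Ager lie to the right of 0 in red, and the intervals of the other 7 genes span 0.

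Other genes of lung cells were read from 4 lists of 44 genes that are not in the set, for alveolar epithelium, airway epithelium, alveolar macrophages, and lung mesenchyme and endothelium. One of them (Tff2) had no count, 17 reached at most 10 counts in any mouse, and 11 had at least 10 counts in every mouse. The 11 include Abca3, a lipid transporter of surfactant vesicles (2203 to 3171 counts), and Npnt and Tmem100, so these lists also hold genes that brain tissue expresses. Between LJP and Vehicle, 0 of the 19 lung-list genes tested passed with edgeR, where 0.0228% of all genes did. Of the 19, 6 had an unadjusted p under 0.05 (29.7% of all genes), DESeq2 called 5 (13.4% of all genes), and edgeR without the filter called 4 of 43 (1.96% of all genes). Between LJP and Sham 3 of 19 passed, against 4.75% of all genes, with Slc34a2 and Sec14l3 lower and Siglecf higher. The medians of log2 fold change over the tested lung-list genes were -0.33 for LJP against Vehicle and 0.09 for LJP against Sham, with 0.00 over all genes in each.

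Of the 14 genes of the alveolar epithelium list, 7 were tested, of which 0 passed for LJP against Vehicle with edgeR (2 at an unadjusted p under 0.05, 2 called by DESeq2) and 1, Slc34a2, for LJP against Sham. The median log2 fold change of the 7 against Sham was 0.04, and Muc1 (0.78), Rtkn2 (0.33), Abca3 (0.09) and Cyp4b1 (0.04) had values above 0. Of the 14, 4 genes (Lamp3, Cxcl15, Cldn18 and Sfta2) were at 0 in every LJP mouse and counted elsewhere, as were 4 of 8 liver genes and 9.45% of all genes with a count. Sfta2 had 1 count in all 12 mice. Slc34a2, the sodium phosphate cotransporter of type II cells, had 14, 9, 12 and 16 counts (Sham), 24, 24, 8 and 10 (Vehicle) and 0, 1, 3 and 0 (LJP). From Sham to LJP it fell by 3.60 on the log2 scale (standard error 0.68, edgeR adjusted p = 0.00887), and by 4.92 without LJP mouse 3, the mouse with the most counts in its group. Fitted changes to so few counts depend on the prior count, and the Sham mean was 4.49 times the limit of 3 counts per LJP library. For LJP against Vehicle the log2 fold change was -3.76 (edgeR adjusted p = 0.0678), or -5.08 without LJP mouse 3. The edgeR adjusted p was below 0.05 in 2 of 12 fits with 1 mouse left out, without Vehicle mouse 3 (0.00895) or 4 (0.0310). It was as high as 0.191 in these fits, and 0.0410 without the filter. Lamp3, a lysosomal membrane protein of lamellar bodies, had 4, 4, 9 and 5 counts (Sham), 4, 6, 4 and 4 (Vehicle) and 0 in each LJP mouse. Cxcl15, the chemokine lungkine of lung epithelium, had 6, 6, 2 and 14 (Sham), 10, 10, 11 and 10 (Vehicle) and 0 in each LJP mouse. Neither passed the filter. In the fit without it, which called 2.76% of all genes for LJP against Sham, Lamp3 was lower in LJP than in Sham (edgeR adjusted p = 0.00699) and than in Vehicle (0.0417), and so was Cxcl15 (0.00681 and 0.0410), and the calls against Vehicle were lost in 8 (adjusted p from 0.0123 to 0.164) and 10 (0.00377 to 0.191) of 12 fits with 1 mouse left out. Cldn18, a tight junction protein of alveolar epithelium, had 5, 3, 3 and 1 counts (Sham), 0, 2, 5 and 6 (Vehicle) and 0 in each LJP mouse, and it passed no test. Abca3 had 2351 to 2878 counts in the LJP mice.

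Of the 14 genes of the airway epithelium list 4 were tested, of which 0 passed for LJP against Vehicle (1 at an unadjusted p under 0.05, 0 called by DESeq2) and 1, Sec14l3, for LJP against Sham. The medians of log2 fold change of the 4 were -0.10 and -0.43. Aox3 was at 0.12 against Vehicle and 0.22 against Sham, and Cldn10 at 0.37 and -0.48. Chad, which the filter removed, had 5, 6, 0 and 5 counts (Sham), 7, 0, 4 and 1 (Vehicle) and 4, 6, 13 and 7 (LJP). Sec14l3, a lipid-binding protein of airway epithelium, had 25, 46, 38 and 24 counts (Sham), 16, 31, 31 and 29 (Vehicle) and 15, 13, 16 and 14 (LJP). Its fall from Sham to LJP by 1.28 on the log2 scale (standard error 0.32, edgeR adjusted p = 0.0387) was lost in 7 of 12 fits with 1 mouse left out, with adjusted p from 0.0179 to 0.130, and in the fit without the filter (0.0606). Muc5b, a gel-forming mucin, had 5, 5, 6 and 4 counts (Sham), 8, 1, 0 and 2 (Vehicle) and 0, 0, 2 and 0 (LJP). Genes of ciliated cells, which the ependyma of the brain shares with the airway, were present in all 12 mice. The summed level of 8 such genes was 49.2 to 72.3 CPM in the Sham, 85.4 to 156 in the Vehicle and 71.4 to 92.9 in the LJP mice. Between Vehicle and Sham 4 of the 8 passed with edgeR (Foxj1, Tppp3, Cfap126 and Tmem212), all higher in Vehicle, as in 22.7% of all genes, and Tmem212 lost its call without any 1 of the Sham mice or Vehicle mouse 1 or 2. The median log2 fold change of the 8 was 0.60, and 0.22 without Vehicle mice 1 and 2 together, where Tmem212 also lost its call. For LJP against Vehicle 0 passed, with 5 at an unadjusted p under 0.05 (29.7% of all genes), a median log2 fold change of -0.55 (-0.33 without Vehicle mice 1 and 2) and 2 called lower by DESeq2 (which called 13.4% of all genes). In this contrast edgeR called 1 lower with no filter (Foxj1, adjusted p = 0.0450), 4 without Vehicle mouse 3 and 3 without Vehicle mouse 4. For LJP against Sham 0 passed with edgeR and DESeq2 called 1, Tppp3. The 2 with an unadjusted p under 0.05 were Tppp3 (log2 fold change 0.58, edgeR adjusted p = 0.0569) and Dnah5 (-0.63, edgeR adjusted p = 0.128), which edgeR called without Vehicle mouse 2 and in a fit of the 2 groups alone, and Tppp3 also without Vehicle mouse 1 or 3, with no filter and with library-size scaling. Foxj1, the master regulator of motile cilia, had 188 to 372 counts in the Sham mice, 412 to 1208 in the Vehicle mice and 233 to 391 in the LJP mice.

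**Figure D4:**
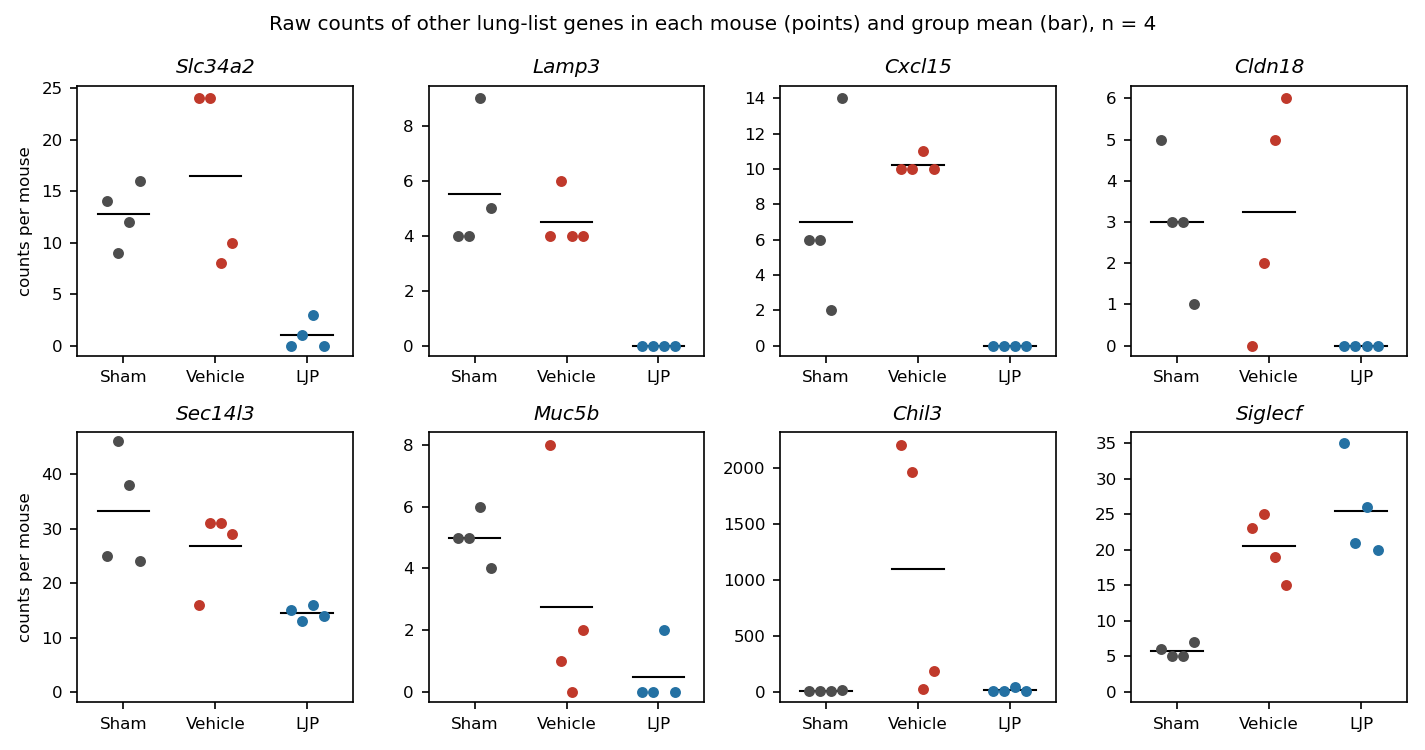
Raw counts of 8 genes of the lung lists in each mouse (points, vertical axis) with the group mean (bar) in Sham, Vehicle and LJP mice (horizontal axis), each panel with its own scale. Lamp3, Cxcl15 and Cldn18 stand at 0 in all LJP mice, and Chil3 reaches 2206 and 1963 counts in Vehicle mice 1 and 2.

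Between Vehicle and Sham, 7 of the 19 lung-list genes passed, near the 39.9% of all genes, 6 higher and Cldn10 lower. The 6 were Chil3, Siglecf, Foxf1, Muc1, Cbr2 and Tmem100, and several were highest in the Vehicle mice in which Napsa and Ager were highest. Without Vehicle mice 1 and 2 the fit called 5 lung-list genes. They were not all among the 7, since Foxf1, Muc1 and Tmem100 lost their calls. Chil3, a chitinase-like protein of macrophages and neutrophils, had 2206, 1963, 29 and 186 counts (Vehicle), with 7 to 18 in Sham and 7 to 41 in LJP mice (log2 fold change 6.37, edgeR adjusted p = 0.00163, with 5.76 without Vehicle mouse 1 and 3.29 without Vehicle mice 1 and 2). Foxf1 (log2 fold change 1.88, and 1.17 without Vehicle mouse 2) had 104, 230, 19 and 50 counts and Muc1 71, 70, 11 and 23 in the Vehicle mice, and both lost their calls without Vehicle mice 1 and 2 (edgeR adjusted p = 0.320 and 0.487). Muc1 also lost its call without Sham mouse 2 or 4 or Vehicle mouse 1 or 2 (edgeR adjusted p from 0.0526 to 0.0663), Cbr2 without Sham mouse 2 or 4 or Vehicle mouse 2 (0.0661 to 0.0681), Cldn10 without Sham mouse 3 or 4 or Vehicle mouse 1 (0.0518 to 0.0533), and Tmem100 without any 1 of the Sham mice, Vehicle mouse 2 or 4, or Vehicle mice 1 and 2 together (0.0555 to 0.106). Marco, a scavenger receptor of alveolar and other macrophages, had 103, 5, 4 and 4 counts (Vehicle) and 0 in the other 8 mice. Siglecf, of alveolar macrophages, eosinophils and activated microglia, was higher in the Vehicle mice (15 to 25 counts) and the LJP mice (20 to 35) than in the Sham mice (5 to 7), by 1.64 and 2.03 on the log2 scale (edgeR adjusted p = 0.000965 and 0.00132). Foxj1 had 1208 and 990 counts in Vehicle mice 1 and 2 against 412 and 476 in mice 3 and 4. The summed alveolar macrophage list spanned 3.39 to 107 CPM in the Vehicle mice, 1.10 to 1.503 in the Sham mice and 1.62 to 3.97 in the LJP mice, and Ear1 and Krt79 had at most a few counts. The part of these cells in the levels of Napsa and Ager was not tested.

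Abundant genes such as Abca3 and Cldn10 led the summed levels of the lung lists. The alveolar epithelium list had 130 to 143 CPM in Sham, 146 to 156 in Vehicle and 139 to 150 in LJP mice. The airway list had 20.3 to 23.4 CPM in Sham, 10.9 to 18.6 in Vehicle and 14.9 to 18.003 in LJP mice. Of the 44 genes, 10 were at 0 in every LJP mouse and counted in at least 1 other mouse, against the 9.45% of all genes. Whether lung or airway RNA entered the Sham and Vehicle libraries was not tested.

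Markers of other organs gave the level that such transcripts reach in these libraries. Of 8 liver genes, 7 reached at most 10 counts in any mouse, among them Alb, which had 11 counts over all 12 mice, and the summed level was 0.83 to 1.20 CPM in the Sham mice and 1.17 to 1.59 in the LJP mice. Of 6 testis genes 3 had no count and Prm1 led with 37 counts in all. Of 8 pancreas genes 6 reached at most 10 counts in any mouse, and Cela1, which rose in the Vehicle mice (log2 fold change 2.21, edgeR adjusted p = 0.00017), led with 15 to 36 counts in the Sham mice and 93 to 183 in the Vehicle mice. Of 6 pituitary genes Prl and Cga had no count, and Pomc, which hypothalamic neurons express, had 19 to 43. The kidney, olfactory, heart and skeletal muscle lists were each led by 1 gene found in every mouse, Slc22a6 (25 to 157 counts), Ano2 (10 to 281), Myl4 (207 to 346) and Acta1 (82 to 145). Between LJP and Vehicle, 0 of the 17 tested genes of these 8 other-organ lists passed with edgeR, 2 had an unadjusted p under 0.05 (29.7% of all genes), and DESeq2 called 1, Ano2 (13.4% of all genes). Between Vehicle and Sham edgeR called 3 of the 17 higher and 1 lower, where 39.9% of all genes passed. Between LJP and Sham it called 1 higher and 0 lower, where 4.75% passed.

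The pattern of 0 in LJP was also counted over all genes. Low or 0 counts in the LJP mice were what chose the set, and the lung lists were drawn up with earlier results known, so the return of their genes is not independent and nothing is read from it. Genes at 0 in every LJP mouse and with at least 3 counts in each of the other 8 numbered 3 in the whole table (0.00993% of genes with a count): Scgb1a1, Sftpa1 and Lamp3. With at least 1 count in the 8 mice there were 6, which added Sftpd, Cxcl15 and Ucp1, a mitochondrial uncoupling protein of brown fat and the only one of the 6 that no lung list or the set holds. With the Sham mice as the group at 0 there were 2 genes at a minimum of 3 counts (Serpina3m and Tnfsf8) and 19 at a minimum of 1, more than for LJP, and none of them was in the set or the lung lists. With the Vehicle mice there were 1 (Foxb1) and 2. With up to 1 count allowed in the low group and at least 3 in the others, the numbers were 9 for Sham, 1 for Vehicle and 3 for LJP. Among the 3193 genes with a mean of 50 to 200 counts in the 8 mice, where Scgb1a1 lies at 100.5 counts, 6 were at 0 in at least 1 LJP mouse, and Scgb1a1 was the only one at 0 in all 4.

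Likeness to Scgb1a1 was described by Pearson's r of log2(CPM + 0.5) over the 12 mice for the 17639 genes with at least 100 counts in all. Since the mice fall into 2 levels of Scgb1a1, r mostly says how far a gene separates the LJP mice from the rest. Sftpa1 (r = 0.975) and Sftpb (0.965) ranked first and second. The next 5 were 2810004N23Rik (0.915), Slc34a2 (0.906), Stc2 (0.889), a secreted glycoprotein, Nomo1 (0.869) and Prss56 (0.852), a serine protease. Of these, 2810004N23Rik had 160 to 217 counts in the Sham and Vehicle mice and 125 to 142 in the LJP mice, so a steady small difference ranked beside losses to 0. Cyp2f2 ranked 13 (0.815) and Sftpc 113 (0.672), and Ager (0.328), Napsa (0.173) and Scgb3a1 (-0.450) ranked 1977 or lower. Scgb3a2 and Sftpd had too few counts to be ranked.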

How the data were processed

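Poly(A) RNA of ischemic hemispheres was sequenced as paired-end reads in 12 mice, and the authors deposited raw counts per gene and mouse with a gene length and position. Per the labels, the submitters' processing notes name featureCounts and DESeq2 and the builds GRCm39 and mm10, with no roles. Gene positions in the table match GRCm38. Aligner, strand setting and the handling of shared reads are not given in the sources used here, so reads of the close copies of a gene could be split in ways that were not checked.

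Groups and replicate numbers came from the sample titles. The edgeR package (4.0.16, R 4.3.3) was used on all 12 mice: of 30210 genes with a count, filterByExpr left 17558, which were scaled by TMM and given 1 term per group in a quasi-likelihood fit. Benjamini-Hochberg adjustment ran over all genes tested, and an adjusted p below 0.05 was called. Genes that the filter removed were read from the same fit without it. CPM values are on TMM-scaled library sizes. A count of 0 was read as allowing 3 counts per library, which is 0.135 to 0.167 CPM before TMM scaling. Intervals and limits cover counting error only, except those of the edgeR fold changes. DESeq2 1.42.0, RLE and library-size scaling, no filter, a fit of 2 groups, the replicate number as a block and leaving out each mouse were the alternatives. Mice of a group differed by more than sampling noise (chi-square per degree of freedom 2.48 to 111). Plots used matplotlib 3.10.9.

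The genes of the set and the lists were chosen with earlier results of these data known. Of the lists, genes past the threshold (at most 5 a list) or the 3 with the most counts could be named, with every gene of the rule on zeros and the 5 genes most like Scgb1a1; Cldn18, Sfta2, Chad, Cyp4b1, Lamp3, Cxcl15, Muc5b, Dnah5, Alb, Prm1, Prl, Cga, Ear1, Krt79, Tff2, Ucp1, Serpina3m, Tnfsf8, Foxb1 and the brain markers were named after their values were seen.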

Additional observations from a re-analysis of the deposited data

Results flagged for a closer look

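In 39 groups of 4 mice, over the genes of the set, Slc34a2, Lamp3, Cxcl15, Sec14l3 and the summed level, 5 groups held a mouse whose gap to the nearest other, as a share of the group's range, passed Dixon's 95% critical value. About 1.95 would pass at 1 in 20 if the groups were independent and normally distributed. Small counts with ties, and a sum beside its own genes, are not, so the 2 numbers are not compared. LJP mouse 1 was the only LJP mouse with Sftpb counts (2 counts). With the other 3 at 0 its gap is 1.00 of the range whatever the count, so nothing is read from it. LJP mouse 1 was also the lowest of its group for Ager, with 10 counts against 16 or 17 (0.882). Sham mouse 3 was the highest Sham mouse for Napsa, with 25 counts (0.832), and for Lamp3, with 9 counts (0.850). Vehicle mouse 2 was the highest for the summed level of the set, with 588 counts (0.835), to which Napsa gave 172 and Ager 101.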

How the results depend on the processing

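Of the 10 genes, 3 were called for Vehicle against Sham, 2 to 3 when each mouse was left out in turn, 3 with the replicate number as a block, and 1 (Scgb3a1) without Vehicle mice 1 and 2 together, where fewer mice remain. Scgb3a1 and Napsa kept their calls in every fit that left out 1 mouse. Ager was also lost in the fit of 2 groups (edgeR adjusted p = 0.0526). Among genes that were not called, Sftpd ranged from -0.027 (without Sham mouse 3) to 0.80 and Cyp2f2 from -0.056 (without Sham mouse 2) to 0.43 with 1 mouse left out, with Cyp2f2 also below 0 without Sham mouse 4 or Vehicle mouse 4. Of the lung lists, 7 genes called for Vehicle against Sham became 4 under the block and 3 to 7 with 1 mouse left out (4 without Sham mouse 2 or Vehicle mouse 2, 3 without Sham mouse 4). For LJP against Vehicle, 0 became 5 with DESeq2, 4 with no filter and 0 to 4 with 1 mouse left out (4 without Vehicle mouse 3, 3 without Vehicle mouse 4), and for LJP against Sham 3 became 2 under the block and 3 to 4 with 1 mouse left out. The cause was not tested. Under the block Lamp3 (edgeR adjusted p = 0.0511) and Sec14l3 (0.0683) lost their calls against Sham, and Lamp3 (0.0957) and Cxcl15 (0.0906) theirs against Vehicle. Deviations of same-numbered mice correlated at -0.322 to 0.114 over all genes, which shows no pairing by number. It cannot exclude a pairing that acts on some of the genes.

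The summed level with 1 mouse left out was 13.2 to 14.8 CPM in the Sham, 16.0 to 19.3 in the Vehicle and 3.37 to 4.24 in the LJP mice, and without Scgb1a1 it was 8.43 in the Sham and 13.6 in the Vehicle mice. Genes at 0 in all LJP mice with at least 3 counts in each other mouse numbered 3, with 6 at a minimum of 1 count and 3 to 5 with 1 mouse left out (5 without Sham mouse 3). Of 464 single-gene values under alternatives, 393 kept their direction and side of the threshold, 63 lost a call, 4 gained one and 4 turned direction. Genes with a few counts per mouse, such as Scgb3a2, Lamp3 and Cldn18, are limited by depth to large differences.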
